A study of Homo sapiens with 4 samples.

Results

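The oligoadenylate synthetase (OAS) family was examined in AGS cells with and without an shRNA against MFAP2. Its 4 members, OAS1, OAS2, OAS3 and OASL, were taken by the gene name in the deposited tables and are 4 of 47251 gene rows. They are also the source of 27 of 180500 transcript rows. AGS cells are an epithelial line derived from a gastric adenocarcinoma. The sh-MFAP2 group held 2 libraries of AGS cells with an shRNA against MFAP2, a component of extracellular microfibrils, and the control group held 2 libraries of AGS cells with a scrambled shRNA. By the study's methods both groups were infected with an shRNA lentivirus and kept under puromycin as stable lines. The titles name both sh-MFAP2 libraries sh1 and number them 1 and 2, whereas the descriptions call them sh1 and sh2, so the labels leave unclear whether they hold 1 hairpin or 2. They were treated as replicates of 1 group, and if the hairpins differ, the spread within that group also holds a difference between hairpins. Effects of a hairpin on other RNAs and effects of MFAP2 cannot be told apart here. Nothing says that the libraries of a group came from separate cultures, and p-values measure only the spread between these libraries. The question behind the comparison was how the transcriptome of gastric cancer cells changes when MFAP2 is silenced.

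OAS1, OAS2 and OAS3 are enzymes that bind double-stranded RNA and then join ATP into short oligoadenylates with 2′-5′ links (2-5A). These act as a second messenger of the antiviral response. OASL has lost the synthetase activity, carries ubiquitin-like domains at its C-terminus and is known to enhance signalling by the RNA sensor RIG-I. All members are classical interferon-induced genes, and in epithelial cells type I and type III interferons both induce them.

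Values are FPKM, fragments scaled by transcript length and by library depth, as taken from the tables, which name no unit, and a pair of values is given as replicate 1, then replicate 2. Depth was inferred from the steps between low values as 60980000 reads (replicate 1) and 54790000 reads (replicate 2) with sh-MFAP2 and 59175000 and 75060000 reads in the controls. Read at that depth, the gene values rest on about 1253 to 1797 reads for OAS2, 2884 to 5682 for OASL, 3520 to 7122 for OAS1 and 10122 to 14146 for OAS3. MFAP2 itself stood at 0 with sh-MFAP2 in both libraries and at 0.0116 and 0.0138 FPKM in the controls, about 2 and 3 reads. At this level the tables cannot check the knockdown. The study itself reported the knockdown by western blot and real-time RT-PCR, and MFAP2 protein in AGS cells by western blot. Why the control values here lie near 0 was not tested. The epithelial markers EPCAM and KRT8 were high in every library, from 193 to 210 FPKM and from 690 to 803 FPKM, and the 6 markers of the line summed to 1982 and 1889 FPKM with sh-MFAP2 and to 1960 and 1732 FPKM with control shRNA. CDX1 was listed at 0 in all 4 libraries, and CLDN4 was at 47.1 FPKM in sh-MFAP2 replicate 1 and at most 0.551 FPKM in the others. Of 4 leukocyte markers, PTPRC, CD3E and CD14 did not exceed 0.0511 FPKM, while LYZ, which gastric epithelium also makes, had 85.5 and 579 FPKM with sh-MFAP2, against 89.3 and 369 FPKM with control shRNA. All 4 endothelial markers stayed at or below 0.0298 FPKM. Of 5 fibroblast markers, COL1A2, DCN, LUM and PDGFRB did not exceed 0.0656 FPKM. COL1A1 moved with the groups, at 2.27 and 2.07 FPKM with sh-MFAP2, against 4.36 and 4.92 FPKM with control shRNA (log2 difference -0.83, adjusted p 0.221 in limma), and its part in the values of the OAS genes was not tested.

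OAS1, OAS3 and OAS2 lie side by side on the forward strand of chromosome 12 (GRCh38, GENCODE 29). OAS1 (ENSG00000089127) spans chr12:112906777-112933222, OAS3 (ENSG00000111331) chr12:112938352-112973249 and OAS2 (ENSG00000111335) chr12:112978395-113011723. OASL (ENSG00000135114) lies apart on the reverse strand at chr12:121019111-121039242. An antisense gene (ENSG00000257452) overlaps OAS1, OAS3 and OAS2. It was listed at 0.0266 and 0.0781 FPKM with sh-MFAP2, against 0.00913 and 0.00722 FPKM with control shRNA, and whether the libraries kept strand is not given in the sources used here.

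Interferon acts on these genes through the interferon-stimulated response element, bound by IRF9 in a complex with STAT proteins and by other IRF proteins. RefSeq (GRCh38.p14) promoter windows of 300 bases, 250 before and 50 after the start, were searched on both strands for 2 patterns of letters of this kind, which were chosen with the sequences in view. The full pattern, a pair of GAAA with 2 bases of any kind between, was found in 1255 of 35116 promoter windows (3.57%) and the shorter AANNGAAA, where N is any base, lies inside the full pattern and was found in 8018 (22.8%). OAS3 held 2 matches to the full pattern, and its 3 matches to the shorter one overlap them. OAS1 held no full match and 2 matches to the shorter pattern. The promoters of OAS2 and OASL were not analysed here. The stretches around these matches are shown because they are the only promoter letters to set beside the values of OAS1 and OAS3, at chr12:112906899-112906928 and chr12:112906935-112906964 for OAS1 and at chr12:112938321-112938350 and chr12:112938452-112938481 for OAS3, all forward strand, with the match in capitals and its first base counted from the RefSeq start, which is not the GENCODE start given above.
OAS1 at -52: tctgatttgcaAAAGGAAAgtgcaaagaca
OAS1 at -16: cccttctgaggAAACGAAAccaacagcagt
OAS3 at -143: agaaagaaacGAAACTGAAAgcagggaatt
OAS3 at -12: agccgggcggGAAAACGAAAccagaaatcc
A match is a run of letters and does not show that a factor was bound in AGS cells.

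All 4 members had higher values in both sh-MFAP2 libraries than in both controls, by about 2 times for OAS1 and OASL and by less for OAS2 and OAS3, and none passed the threshold for a differentially expressed gene. That threshold was p under 0.01 with an adjusted p under 0.05 in limma on log2(FPKM + 1) over the 9873 genes that averaged 1 FPKM or more, and 0.273% of these genes passed it. All 4 members had a log2 fold change above 0, against 42.0% of all genes tested, and the groups separated upward in 4 of 4, against 17.5%. An unadjusted p under 0.05 with a higher value in sh-MFAP2 was found for 4 of 4 members, against 3.89% of all genes tested. The median log2 fold change was 0.64 over the members and -0.05 over all genes tested. The members share their libraries and are known to share inducers, so they are not 4 independent observations. They were also chosen with earlier results of these data known, so the shares set beside them describe the members and are no independent test. In bulk RNA, more RNA per cell and more cells that make it cannot be told apart.

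**Figure D1:**
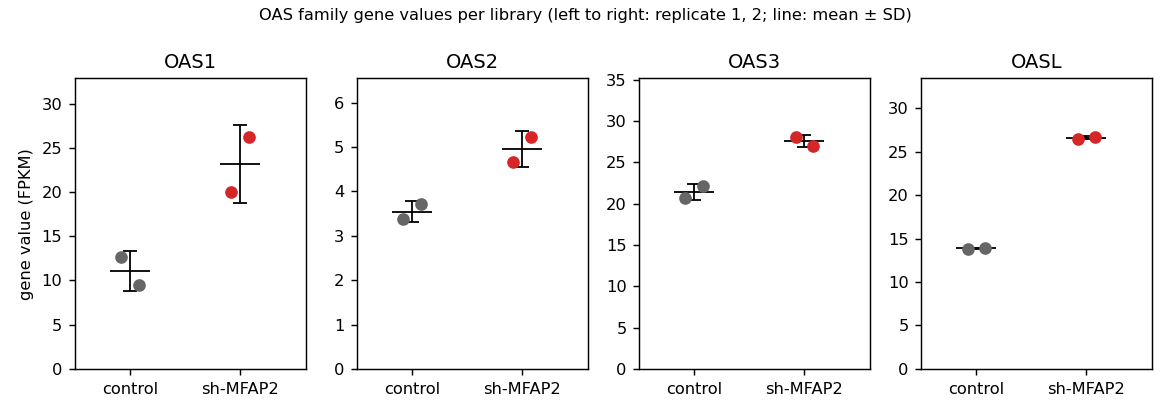
Gene values (FPKM, linear axis from 0) of OAS1, OAS2, OAS3 and OASL in the 2 control and 2 sh-MFAP2 libraries; points are libraries, the horizontal line is the group mean and the error bar is the SD. In each panel both sh-MFAP2 points lie above both control points, with the widest spread for OAS1 and the narrowest for OASL.

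OAS1, the smallest synthetase, had 20.0 FPKM in replicate 1 and 26.3 FPKM in replicate 2 of sh-MFAP2, against 12.6 FPKM in replicate 1 and 9.48 FPKM in replicate 2 of the control. The groups did not overlap, and the spread between replicates was the widest of the 4 members. The means were 23.2 ± 4.41 FPKM (SD, n = 2) and 11.1 ± 2.24 FPKM (SD, n = 2), a ratio of 2.09. On the log2 scale the difference was 1.00 (SE 0.218, 95% interval 0.38 to 1.62), with an adjusted p of 0.336 from limma with Benjamini-Hochberg adjustment.

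OASL, the member without synthetase activity, had 26.5 and 26.8 FPKM with sh-MFAP2, against 13.9 and 13.9 FPKM with control shRNA. The libraries of each group were nearly equal and the groups lay far apart. The means were 26.6 ± 0.185 FPKM (SD, n = 2) and 13.9 ± 0.0476 FPKM (SD, n = 2), a ratio of 1.92. The log2 difference was 0.89 (SE 0.0983, 95% interval 0.61 to 1.17), with an adjusted p of 0.145 from limma, the lowest of the 4 members. The standard error exceeds what these 2 pairs of values alone would give, because limma draws the variance of each gene toward that of genes of like level.

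OAS3, the largest synthetase, with several units of the synthetase domain in tandem, had 28.1 and 27.0 FPKM with sh-MFAP2, against 20.7 and 22.1 FPKM with control shRNA. Replicates lay close together and the groups did not overlap. With means of 27.6 ± 0.777 and 21.4 ± 0.980 FPKM (SD, n = 2 each), the ratio was 1.29. The log2 difference of 0.35 (SE 0.106, 95% interval 0.05 to 0.65) had an adjusted p of 0.394 in limma.

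OAS2, with a tandem pair of the synthetase units, was the lowest member, at 4.67 and 5.24 FPKM with sh-MFAP2, against 3.38 and 3.71 FPKM with control shRNA. Here too the groups were separate, by less than 1 FPKM between the nearest libraries. Means were 4.95 ± 0.403 and 3.55 ± 0.237 FPKM (SD, n = 2 each), and their ratio was 1.40. The log2 difference was 0.39 (SE 0.115, 95% interval 0.06 to 0.72), and the adjusted p from limma was 0.394.

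Every interval lay above 0, but these intervals are not adjusted for the number of genes tested. In simulated libraries of the same design, this test called 0 of 200 genes given a log2 change of 1 and 123 of 200 given a change of 2, and the members' differences were at or near the smaller size or below it. The simulation changed only 200 of 9873 genes and drew each variance at random, so these rates need not hold for the members.

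The direction held in every fit that was made, but many of these fits could not have reversed it. Other filters, the variance model without a trend and the replicate block leave the difference itself unchanged. Because the groups did not overlap, neither leaving out a library nor another pseudocount could turn its sign. Only the scalings and the sums of transcripts could have done so. Over other filters, pseudocounts, scalings and variance models the log2 difference ran from 1.00 to 1.07 for OAS1, from 0.39 to 0.48 for OAS2, from 0.35 to 0.42 for OAS3 and from 0.87 to 0.96 for OASL. Leaving out each library in turn moved OAS1 most, from 0.81 to 1.19, and OASL least, from 0.88 to 0.90. OAS2 ran from 0.32 to 0.46 and OAS3 from 0.31 to 0.39 in the same fits.

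**Figure D2:**
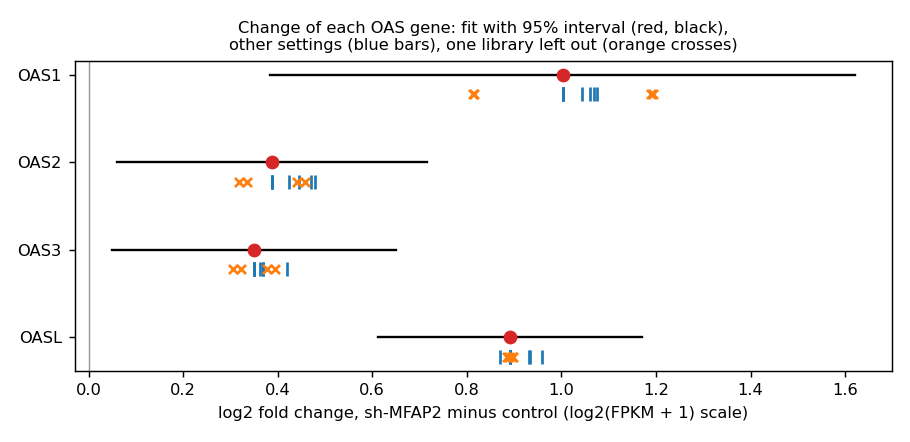
Log2 fold change (sh-MFAP2 minus control, log2(FPKM + 1) except where the pseudocount was changed) of the 4 OAS genes; the red point and black line are the fit and its 95% interval, blue bars are other settings and orange crosses are fits without 1 library. All marks lie above 0, and OASL has the tightest crosses, from 0.88 to 0.90.

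The order of the members' levels depended on how a gene is summed. In the deposited table a gene's value weights each transcript by its length and divides the sum by a fixed gene length, a relation by which the implied gene length was equal over the libraries, within 0.001 of its value, in 8962 of 8962 genes above 1 FPKM in all libraries, and that gene length, 4947 bases for OAS1, can exceed each transcript. By the sum of transcript FPKM, a level per length of each transcript, OAS1 led in sh-MFAP2 with 59.8 and 74.5 FPKM. OAS3 followed with 38.7 and 37.5, then OASL with 30.9 and 31.8 and OAS2 with 6.63 and 7.40 FPKM. No neighbours in that order overlapped in sh-MFAP2. In control, OAS1 at 35.0 and 27.8 FPKM overlapped OAS3 at 28.6 and 29.9 FPKM, above OASL at 17.0 and 16.5 and OAS2 at 4.58 and 5.37 FPKM. By the deposited gene value, OAS3 stood first in each group, followed by OASL and OAS1.

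The isoforms of OAS1 differ in their last exons and so in the C-terminus of the enzyme. The long form encoded by OAS1-201 is known to be prenylated there, which places it on internal membranes, whereas the form encoded by OAS1-203 lacks that signal. The last 30 coding bases of 4 of the 5 complete reading frames are shown because they are where these isoforms part (GRCh38, GENCODE 29, forward strand, stop codon in capitals). The remaining one, of OAS1-211, ends after 177 codons in exon 2 and is not shown.
OAS1-201: gaagaggactggacctgcaccatcctcTGA
OAS1-203: ttcatccctgcccctctccatgaagctTGA
OAS1-202: ataatccaggacagaacccaggtctccTGA
OAS1-208: gttggcagaaggaactataccaataatTAG
OAS1-201 (ENST00000202917) has 400 codons before its stop at chr12:112919551-112919553 in exon 6. OAS1-203 (ENST00000452357) stops at chr12:112917755-112917757 in exon 5 after 364 codons. OAS1-202 (ENST00000445409) uses a later start of exon 6 and ends after 414 codons at chr12:112919691-112919693. OAS1-208 (ENST00000551241) reaches to a distant exon, with its stop at chr12:112931920-112931922 after 360 codons. OAS1-201, OAS1-202 and OAS1-208 leave the exon before at the same base, 112917700, which OAS1-203 reads through.

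Of the 27 transcripts of the family, 12 reached a mean of 1 FPKM and were tested, and all 12 had a log2 difference above 0, against 45.9% of 22312 transcripts tested. Both sh-MFAP2 libraries lay above both controls in 10 of the 12, against 17.8% of all transcripts. Of the 12, OAS1-205 (0.797 and 0.912 FPKM in control) and OASL-203 (0.816 and 0.739 FPKM) reached the mean of 1 FPKM only through the sh-MFAP2 group. Both are among the 10. An unadjusted p under 0.05 was found in 4, all higher in sh-MFAP2, against 3.22% of all transcripts in that direction. None of the 12 was called by limma, and no transcript of the whole table was (0.0% called, 1704, or 7.64%, with an unadjusted p under 0.05). Adjusted p-values of the 12 ran from 0.333 to 0.757 in limma.

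OAS1-201 was the leading OAS1 transcript, with 33.7 and 30.0 FPKM with sh-MFAP2, against 13.2 and 15.0 FPKM with control shRNA. The groups were well apart and the replicates close. Its log2 difference was 1.12 (SE 0.178), with an adjusted p of 0.333 in limma. OAS1-210 (ENST00000553152), a short transcript with no complete reading frame, had 7.69 and 5.69 FPKM with sh-MFAP2, against 1.92 and 2.79 FPKM with control shRNA, again without overlap.

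OAS1-203 showed no such separation, with 10.5 and 25.4 FPKM with sh-MFAP2, against 14.9 and 6.47 FPKM with control shRNA. The control replicate 1 value exceeded that of sh-MFAP2 replicate 1. Its log2 difference of 0.68 had an SE of 0.617 and an adjusted p of 0.752 in limma. OAS1-202 likewise overlapped between groups, at 3.09 and 10.0 FPKM with sh-MFAP2, against 3.34 and 1.59 FPKM with control shRNA. OAS1-208 did not exceed 0.146 FPKM.

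As a share of summed OAS1 transcript FPKM, OAS1-201 gave 56.4% and 40.2% in sh-MFAP2 and 37.8% and 53.9% in control. The share thus varied more within each group than between the group means. It averaged 48.3 ± 11.4% and 45.9 ± 11.4% (SD, n = 2 each), a difference of 2.44 percentage points with an exact two-sided permutation p of 0.667, where 0.333 is the smallest p this design allows. OAS1-203 and OAS1-202 together gave 22.7% and 47.5% in sh-MFAP2 and 52.2% and 29.0% in control. FPKM of overlapping isoforms is an estimate that splits shared reads, and the error of that split is not in the tables.

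**Figure D3:**
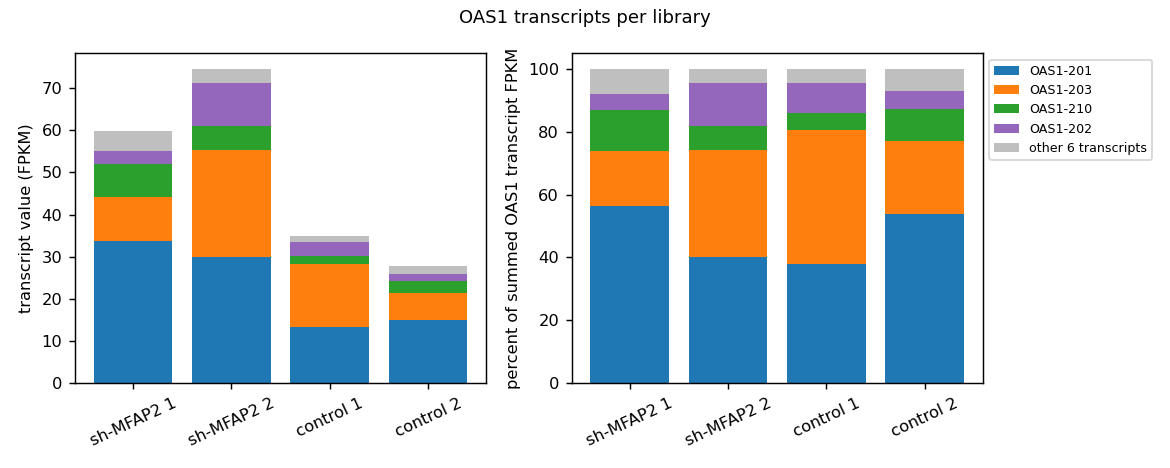
OAS1 transcripts in each of the 4 libraries as stacked bars, on the left in FPKM and on the right as percent of summed OAS1 transcript FPKM. The total is higher in both sh-MFAP2 libraries, at 59.8 and 74.5 FPKM, while the share of OAS1-201 (blue) is highest in sh-MFAP2 replicate 1 and control replicate 2.

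In the other members 1 transcript gave most of the level. OAS3-201, of 16 exons and 1087 codons, had 33.6 and 32.3 FPKM with sh-MFAP2, against 24.8 and 26.6 FPKM with control shRNA, 86.2% to 88.9% of its gene. OASL-201, of 514 codons, had 26.9 and 27.0 FPKM with sh-MFAP2, against 13.5 and 14.0 FPKM with control shRNA, with a log2 difference of 0.92 and an adjusted p of 0.376 in limma. These carried the gene pattern without overlap of the groups. The short OASL-202, of 255 codons, had 3.16 and 2.81 FPKM with sh-MFAP2, against 2.61 and 1.57 FPKM with control shRNA. OAS2-202, of 687 codons, had 5.47 and 6.37 FPKM with sh-MFAP2, against 4.38 and 4.48 FPKM with control shRNA, 82.5% to 95.6% of its gene. The longer OAS2-201, of 719 codons, was too low to test, at 0.599 and 0.429 FPKM with sh-MFAP2, against 0.0357 and 0.0944 FPKM with control shRNA. In each of these 3 transcripts both sh-MFAP2 values lay above both controls. OAS2-203 gave a mean of 5.84% of its gene. The short OAS3-205 had 2.54 and 2.54 FPKM with sh-MFAP2, against 1.49 and 1.37 FPKM with control shRNA, and OAS3-207 had 2.28 and 2.01 against 1.96 and 1.43 FPKM.

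The partners of the 2-5A system that could be tested had log2 differences below 0, as most genes tested did, and none passed the threshold. ABCE1, known as a ribosome recycling factor, had 17.6 and 26.4 FPKM with sh-MFAP2, against 28.6 and 29.2 FPKM with control shRNA. It lay below both controls in each sh-MFAP2 library, with a log2 difference of -0.40 (SE 0.226) and an adjusted p of 0.510 in limma. PDE12, a phosphodiesterase that degrades 2-5A, had overlapping groups at 3.23 and 4.22 FPKM with sh-MFAP2, against 4.30 and 3.95 FPKM with control shRNA. Its log2 difference was -0.12 (SE 0.150), and -0.0346 after quantile normalization. AKAP7, whose protein has a fold shared with 2-5A phosphodiesterases, did not exceed 0.0116 FPKM and was not tested. Of the 3 genes of this list 2 were tested and 0 were called. A value below 0 was found in 2, beside 5722 of the 9873 genes tested. In 1 the groups separated downward, against 31.4% of all genes tested.

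Upstream of the family, the interferon ligands were at low levels. Of 10 ligand genes, 4 were listed at 0 in all libraries and 2 were tested. IFNL1, a type III interferon, had 5.83 and 6.28 FPKM with sh-MFAP2, against 3.49 and 3.98 FPKM with control shRNA, with a log2 difference of 0.58 and an adjusted p of 0.330 in limma. IFNB1, a type I interferon, had 1.26 and 1.44 FPKM with sh-MFAP2, against 1.08 and 0.951 FPKM with control shRNA. Groups of both genes separated upward, against 17.5% of all genes tested, and neither gene was called, against 0.273%. IFNE, an epithelial type I interferon named after its values were seen, stood at 0 with sh-MFAP2 in both libraries and at 0.619 and 0.579 FPKM with control shRNA, too low for the test. IFNL2 and IFNL3, also too low for the test, went the other way. IFNL2 had 1.12 and 0.919 FPKM with sh-MFAP2, against 0.470 and 0.321 FPKM with control shRNA. IFNL3 had 1.18 and 0.918 FPKM with sh-MFAP2, against 0.447 and 0.537 FPKM with control shRNA.

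Among 17 genes from the interferon receptors to their transcription factors, 15 were tested, 7 lay above 0 and 8 below, 4 separated upward and 0 downward (17.5% and 31.4% of all genes tested), and the median log2 difference was -0.0080, which turned to 0.0656 after quantile normalization and 0.0616 with median of ratios. IRF7, which amplifies interferon production, had 21.3 and 19.7 FPKM with sh-MFAP2, against 11.3 and 12.1 FPKM with control shRNA. IRF9, the DNA-binding part of the factor that acts on interferon-stimulated response elements, had 12.6 and 14.0 FPKM with sh-MFAP2, against 8.70 and 8.42 FPKM with control shRNA. Replicates of both were close and the groups separate, with log2 differences of 0.76 and 0.58 and adjusted p-values of 0.238 and 0.320 in limma. IFNGR1, a chain of the receptor for interferon gamma, had 16.5 and 47.1 FPKM in sh-MFAP2, on either side of 41.0 and 37.4 FPKM in control.

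Of 12 RNA and DNA sensors and relatives of the nucleotidyltransferase fold, 9 were tested, 5 lay above 0 and 4 below, and the median was 0.03. IFIH1, which encodes the RNA sensor MDA5, had 16.4 and 17.4 FPKM with sh-MFAP2, against 12.5 and 11.8 FPKM with control shRNA, a log2 difference of 0.45 with an adjusted p of 0.347 in limma. MB21D1, which encodes the DNA sensor cGAS and shares the fold of the OAS enzymes, had 2.93 and 4.38 FPKM with sh-MFAP2, against 11.3 and 4.52 FPKM with control shRNA. Its nearest libraries differed little, and control replicate 1 stood far above the rest. MAVS, the adaptor of the RNA sensors, overlapped widely, at 7.62 and 3.28 FPKM with sh-MFAP2, against 1.65 and 8.16 FPKM with control shRNA.

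The other interferon-induced effectors were the list nearest to the OAS genes by its median. Of 32 genes, 25 were tested, 21 lay above 0 (42.0% of all genes tested) and 4 below, 16 separated upward and 1 downward (17.5% and 31.4% of all genes tested), and the median log2 difference was 0.57. An unadjusted p under 0.05 was found in 9 with a higher value and in 1 with a lower value (3.89% and 8.41% of all genes tested), and 0 were called. This list too was chosen with earlier results of these data known. ISG15, a ubiquitin-like modifier, had 577 and 631 FPKM with sh-MFAP2, against 277 and 247 FPKM with control shRNA, with a log2 difference of 1.20 and an adjusted p of 0.137 in limma. IFIT5, an RNA-binding protein, had 7.85 and 8.76 FPKM with sh-MFAP2, against 1.13 and 0.0531 FPKM with control shRNA. Its control mean of 0.591 FPKM lay below the filter of 1 FPKM, so it was tested only through the sh-MFAP2 group. The same held for ISG20, at a control mean of 0.821 FPKM. IFIT2 and SAMD9, at sh-MFAP2 means of 0.263 and 0.147 FPKM, were tested only through the control group. IFIT1, IFIT2 and IFIT3, named after their values were seen, overlapped between the groups and differed widely between replicates. IFIT1 had 58.9 and 3.43 FPKM with sh-MFAP2, against 35.8 and 3.30 FPKM with control shRNA. IFIT3 had 0.605 and 35.0 FPKM with sh-MFAP2, against 9.52 and 0.847 FPKM with control shRNA. SAMD9, an antiviral protein, went the other way through 1 library, with 0.0414 and 0.254 FPKM with sh-MFAP2, against 0.235 and 5.59 FPKM with control shRNA. BST2, named after its values were seen, was the 1 gene counted as lower by unadjusted p and as separated downward. It had 29.6 and 23.1 FPKM with sh-MFAP2, against 37.6 and 42.9 FPKM with control shRNA. Its log2 difference was -0.60, with an adjusted p of 0.393 in limma.

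**Figure D4:**
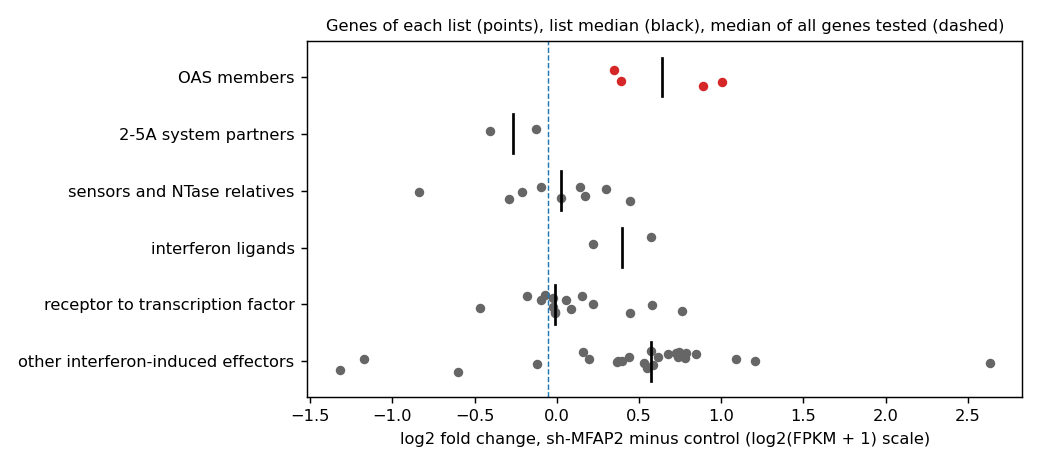
Log2 fold change (sh-MFAP2 minus control, log2(FPKM + 1)) of each tested gene of the OAS family and of 5 lists around it; each point is a gene, placed at random height within its row, the black line is the list median and the dashed line the median of all genes tested. The OAS median of 0.64 and the effector median of 0.57 lie right of the dashed line at -0.05, and the median of the 2-5A partners, of which 2 were tested, lies at -0.26.

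Most genes next to the family on chromosome 12 had differences near 0. Of 19 protein-coding neighbours, 10 around the OAS1, OAS3 and OAS2 block and 9 around OASL, taken among the 5 nearest on each side, 14 were tested, 9 lay above 0 and 5 below, and the median log2 difference was 0.07. Groups separated upward in 3 and downward in 2, beside 17.5% and 31.4% of all genes tested. PTPN11, a phosphatase of growth factor signalling 397 kb from the block, was named after its values were seen, being the single neighbour with an unadjusted p under 0.05. It had 28.3 and 25.7 FPKM with sh-MFAP2, against 12.3 and 15.8 FPKM with control shRNA, a log2 difference of 0.91 with an adjusted p of 0.302 in limma. The nearest genes of the block were RPH3A at 7.90 kb, listed at 0 in all libraries, and DTX1 at 45.0 kb, at most 0.147 FPKM. P2RX7, 93.6 kb from OASL, did not exceed 0.0181 FPKM.

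**Figure D5:**
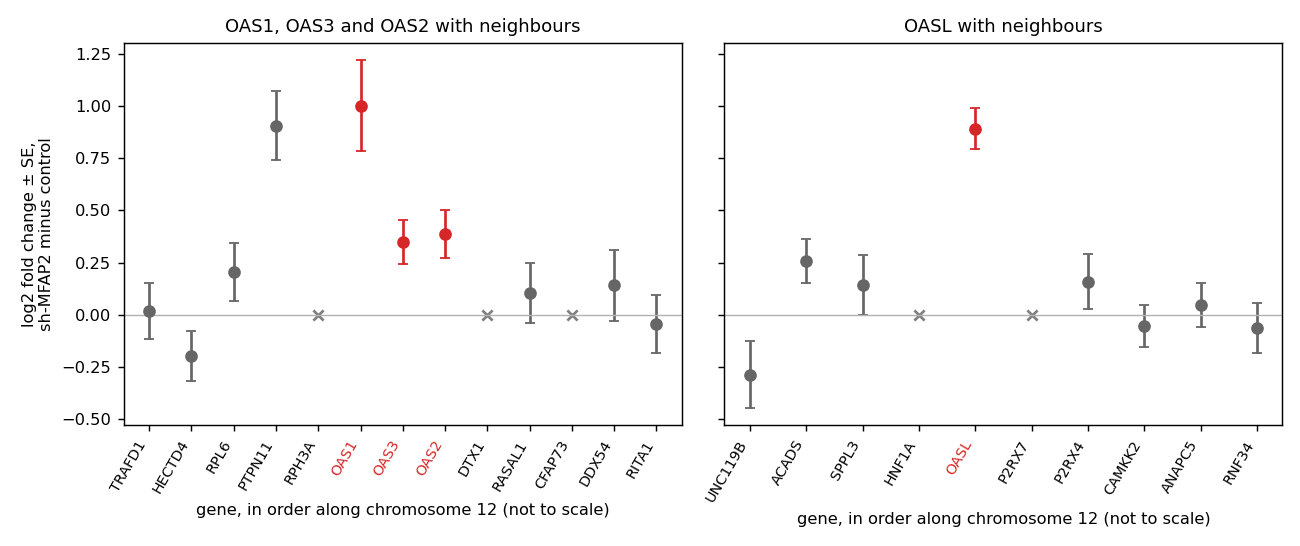
Log2 fold change with SE (sh-MFAP2 minus control, log2(FPKM + 1)) of the OAS genes (red) and of 10 protein-coding neighbours of the block and 9 of OASL (grey), in chromosome order and not to scale; crosses at 0 mark genes too low to test. PTPN11 at 0.91 is the neighbour with a value like that of OAS1, and the other neighbours lie between -0.29 and 0.26.

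By Euclidean distance between log2(FPKM + 1) values over the 4 libraries, each centred on its gene's mean, OAS2 and OAS3 were the closest members at 0.143, then OAS1 and OASL at 0.390, and OAS1 and OAS3 were farthest apart at 0.793. Among all genes tested, the nearest to OAS1 were RP1-4G17.5 at 0.106 and the gene ENSG00000258474 at 0.173. RP1-4G17.5 had 1.82 and 2.60 FPKM with sh-MFAP2, against 0.935 and 0.511 FPKM with control shRNA. ENSG00000258474 had 1.71 and 2.18 FPKM with sh-MFAP2, against 0.775 and 0.442 FPKM with control shRNA. The control values of both lay below the filter of 1 FPKM, so both genes were tested only through the sh-MFAP2 group. PTCD1 at 0.0435 and AGFG1 at 0.0450 were nearest to OAS2, and PCSK5 at 0.0313 and WASH2P at 0.0361 to OAS3. Nearest to OASL were ALDH3A1 at 0.108, with 13.6 and 14.4 FPKM with sh-MFAP2, against 7.63 and 7.66 FPKM with control shRNA, and FGG at 0.111, with 39.8 and 36.8 FPKM with sh-MFAP2, against 21.4 and 20.7 FPKM with control shRNA. These distances describe 4 libraries and carry no test.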

How the data were processed

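The 2 sh-MFAP2 and 2 control RNA sequencing libraries of AGS cells were grouped by their labels. The authors deposited a gene table and a transcript table with 1 value per library. No header names the unit, and the deposited values were taken as FPKM because they are not whole, sum to different totals and fall on steps of reads over length. Only 56.3% to 59.3% of low values lay within 0.05 of a whole step (10% by chance), so reads were not recovered and no count test was run. The submitters' processing notes name hg38. The aligner, quantifier and annotation are not given in the sources used here. GENCODE 29, the source of coordinates and names of transcripts, held 43715 of the 47251 gene identifiers.

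Rows that averaged 1 FPKM or more entered limma 3.58.1 (R 4.3.3) as log2(FPKM + 1), a scale that understates the change of low genes. The lmFit step was followed by eBayes with its trend option, two-sided, with Benjamini-Hochberg adjustment over 9873 genes or 22312 transcripts, and calls at p under 0.01 and adjusted p under 0.05, the thresholds of the study. Standard errors are moderated. The share of OAS1-201 was compared by an exact permutation test. The test was run on simulated data, where it found 0 of 200 genes given a log2 change of 1 and 123 of 200 given a change of 2, with 0 and 4 false calls. Named were the members, their transcripts with at least 5% of the gene, the 2-5A partners, the 3 largest differences of each other list, the 2 nearest profiles per member and the nearest neighbours. Some genes are not reported here and were left out of these lists, neighbours and counts. The members and lists were chosen with earlier results of these data known. Same-numbered libraries deviated from their group means with a correlation of -0.06 over genes and were not treated as pairs. Alternatives were other filters (none, mean of 5 FPKM), a pseudocount of 0.1, quantile normalization, median of ratios, no variance trend, sums of transcripts, a replicate block, an unadjusted threshold and leaving out each library. Other steps used pandas 2.3.3, scipy 1.17.1, numpy 2.4.6 and matplotlib 3.10.9 in Python 3.11.15.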

Additional observations from a re-analysis of the deposited data

How the results depend on the processing

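No OAS gene was called in any fit, with adjusted p-values in limma over the alternatives other than leaving out a library of 0.285 to 0.614 for OAS1, 0.370 to 0.614 for OAS2, 0.359 to 0.614 for OAS3 and 0.130 to 0.614 for OASL. With a threshold of an unadjusted p under 0.05 alone, 4 members passed. OAS2 was not in the fit with a mean of at least 5 FPKM. When the replicate numbers were blocked, the adjusted p was 0.614 for each member and the log2 differences were 1.00, 0.39, 0.35 and 0.89, but the numbers are only shared names, and the correlation of same-numbered libraries was -0.06. Among all genes 27 were called, but 6 when unfiltered, 9 at a mean of 5 FPKM or more, 0 with the replicate block and 0 without any 1 library, and 22 to 28 under the other alternatives. The cause of these differences was not tested.

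The median over the members was 0.89 with a mean of at least 5 FPKM, which leaves out OAS2, 0.70 with a pseudocount of 0.1, 0.71 after quantile normalization and 0.70 with median of ratios. For the 2-5A partners it was -0.26, but -0.12 when unfiltered and -0.40 at a mean of 5 FPKM or more, which leaves 1 gene. For the sensors it was -0.0356 with a mean of at least 5 FPKM, 0.0825 after quantile normalization and 0.0903 with median of ratios. For the ligands it was 0.34 with no filter, 0.53 with a pseudocount of 0.1 and 0.47 after quantile normalization, for receptors to transcription factors 0.0398 at a mean of 5 FPKM or more and for effectors 0.43 with no filter. With each library left out in turn, medians ran from 0.60 to 0.68 (members), -0.48 to -0.0487 (2-5A partners), -0.13 to 0.12 (sensors), 0.35 to 0.45 (ligands), -0.0485 to 0.193 (receptors to transcription factors) and 0.47 to 0.66 (effectors). The sign of the sensor median turned without sh-MFAP2 replicate 1 (-0.134) or control replicate 1 (-0.0388), and that of receptors to transcription factors, below 0 with all libraries, without sh-MFAP2 replicate 1 (0.193), control replicate 1 (0.0744) or control replicate 2 (0.0032).

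OAS1-201 ran from 1.04 to 1.20, OAS1-210 from 1.01 to 1.39, OAS1-202 from 0.29 to 1.72 and OAS1-203 from 0.08 to 1.28 in the fits without 1 library, of which those of OAS1-203 and OAS1-202 therefore rest on single libraries. The share of OAS1-201 differed by -5.64 percentage points without sh-MFAP2 replicate 1 and 10.5 without its replicate 2, and by -5.60 without control replicate 1 and 10.5 without its replicate 2, so its direction, 2.44 with all libraries, turned without either replicate 1 and held without either replicate 2. In these fits a group has 1 library, whose spread is assumed to equal that of the other group. Unadjusted p-values without 1 library reached 0.0514 for OAS1, 0.172 for OAS2, 0.214 for OAS3 and 0.0172 for OASL in the limma fits.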
